A study of Brassica napus with 48 samples.

Results

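Large flower buds of the oilseed rape (Brassica napus) line J10 were compared between sterile and fertile plants. The comparison took the 8 arrays titled as large buds of the sterile and of the fertile J10 plants, out of 48 arrays in the series, and all 22746 probe sets that are not controls. Per the labels, the 4 sterile arrays came from plants of genotype MsMsrfrf and the 4 fertile arrays from plants of genotype MsMsRfrf. Both carried Ms in the homozygous state, so the labelled genotypes differed at Rf. The buds were over 3 mm long and stood for the trinucleate pollen stage, as the series' design gives it. Plants grew in 1 field, and buds were frozen whole, with stamens and pistils. Buds came from 2 to 4 inflorescences a plant and 2 to 4 plants of each line. Middle buds (1 to 3 mm, uninucleate stage) of both kinds of J10 plant, and large buds of the line J03, were used to place the result. Sterile J03 plants were Msmsrfrf and fertile J03 plants msmsrfrf, so that line differed at Ms.

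In dominant genic male sterility, an allele of Ms stops pollen from forming, and in J10 plants with a Rf allele are fertile in spite of it. Pollen matures inside the anther, where a nurse layer called the tapetum secretes wall-digesting enzymes, wall precursors and coat material and then breaks down. By the trinucleate stage of a fertile bud the tapetum has degenerated, and pollen grains take up sugars, make pectin-modifying enzymes for later tube growth, and accumulate protective proteins before they dry.

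RNA was hybridised to the Affymetrix ATH1 array, whose probes were designed for Arabidopsis, a relative of oilseed rape. A gene name below stands for the probe set designed for that Arabidopsis gene, the roles given are those known from Arabidopsis, and rapeseed transcripts with a different sequence bind it less well. Signals therefore compare samples for 1 probe set, never 1 probe set with another. The values are the deposited linear signal intensities. A group had 2 biological replicates, each hybridised on 2 arrays, on the reading that an array titled as technical replicate repeats the biological replicate of its number. Signals of a group are given in the order replicate 1, first and second hybridisation, then replicate 2. Changes are sterile minus fertile on the log2(signal + 112) scale, with the SE and the adjusted p of the limma model fitted to all 12 groups of the series. Adding the offset understates changes of dim probe sets.

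The sterile arrays stood apart from the fertile ones in 2 overall measures. The mean log2 ratio of 3' to 5' signal of the actin, GAPDH and ubiquitin controls, a stand-in for RNA integrity, was 1.84 to 2.03 on the sterile arrays and 0.843 to 1.57 on the fertile arrays. The median log2 level of plastid-encoded transcripts was 11.75 to 12.56 on the sterile arrays and 11.11 to 11.63 on the fertile arrays. Neither pair of ranges overlapped. The part of the plastid level in the results was not tested, and calls lost in a fit that takes the 3' to 5' ratio into account are given as such. The ratio itself differed between the sterile (1.943 ± 0.007) and fertile (1.192 ± 0.407) groups (SD, n = 2), so that fit cannot tell the 2 apart. A call can be lost in it through a larger SE alone, so a loss does not show that the call rests on RNA integrity. Across probe sets the second hybridisation of sterile replicate 2 correlated least with its own group (mean r = 0.746). The other 3 sterile arrays had 0.781 to 0.786 and the fertile arrays 0.801 to 0.83. Of 27 marker genes of the tissues in a bud, 6 were named in the annotation and all 6 were tested. The tapetum markers A9 and AMS lay above the array median on all 8 arrays, and so did RCA, a marker of green tissue. TET11, a pollen-expressed tetraspanin gene, lay above it on 3 of 4 sterile and 4 of 4 fertile arrays, and the pollen actin ACT12 on 1 of 4 sterile and 3 of 4 fertile arrays. The ovule gene INO did so on 4 of 4 sterile arrays and 1 of 4 fertile arrays. No marker of the 6 floral identity genes was named here.

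Most of the probe sets that differed were lower in sterile buds. Of 14021 probe sets tested, 341 (2.43%) passed an adjusted p under 0.05, with 70 higher (0.499%) and 271 lower (1.93%) in sterile buds. An unadjusted p under 0.05 was seen for 1964, where 701 would be expected if no probe set differed. The median change over all probe sets tested was 0.018. Called changes had a median size of 1.32 on the log2 scale among the higher and 1.38 among the lower probe sets. Changes over 2 were seen in 9 of the higher and 51 of the lower ones. Of the 341 calls, 119 had 1 gene in the annotation, 30 higher and 89 lower. All 4 sterile arrays lay above all 4 fertile arrays in 62 of the 70 higher calls, and below them in 243 of the 271 lower calls. Over all probe sets tested, arrays were separated this way in 4.17% (higher) and 5.88% (lower). The total fell to 129 without sterile replicate 1 and to 122 without fertile replicate 1, and was 246 and 238 without sterile or fertile replicate 2. Of the lower calls 65 were made in all 4 of these fits, and of the higher calls 3. A fit without a replicate leaves 1 replicate in a group, so a call can be lost through lower precision or through a changed estimate. When the mean ratio of each sample entered the fit as a covariate (the ratio covariate in what follows), the total was 79, with 63 of the lower and 11 of the higher calls among them.

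**Figure D1:**
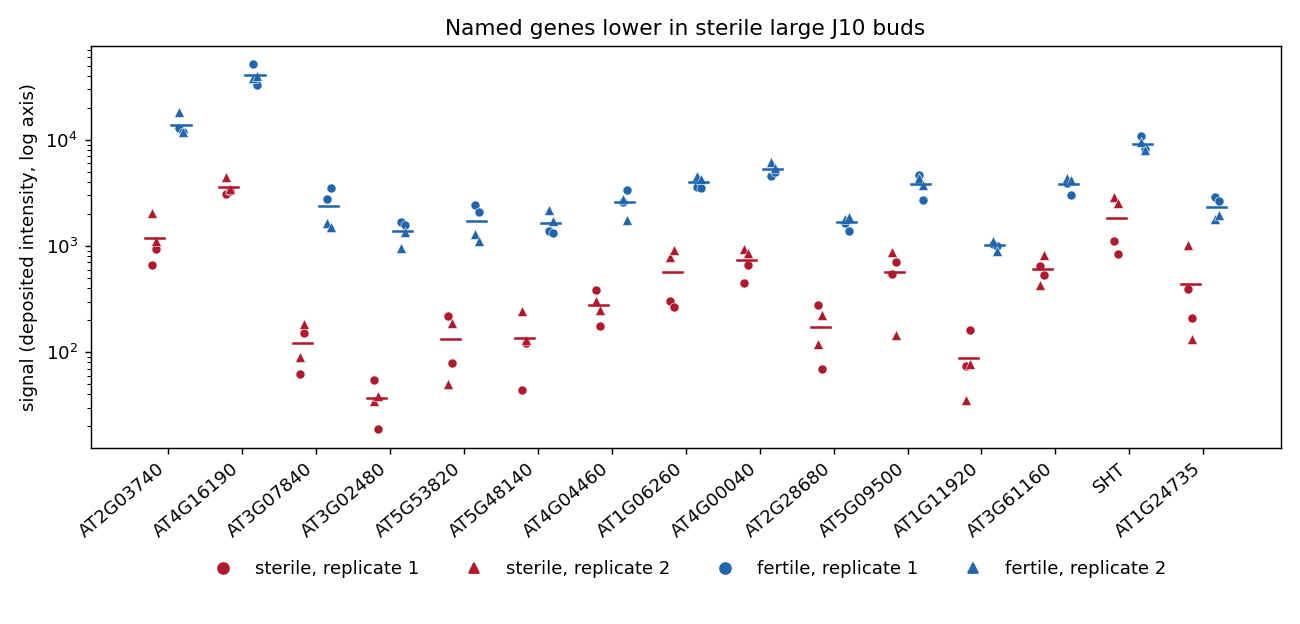
Signal on each array (deposited intensity, log axis) of 15 genes, those with the largest called decreases, with sterile arrays left of fertile arrays and a line at the mean of 4 arrays. For each of the 15 genes all 4 sterile arrays lie below all 4 fertile arrays.

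Genes of desiccation-protective proteins gave some of the largest decreases among named genes. AT2G03740 encodes a late embryogenesis abundant (LEA) family protein, a class of hydrophilic proteins that accumulate as seeds and pollen dry. Its signals were 665.8, 934.7, 2057 and 1121 in sterile buds, against 12921, 11908, 18288 and 11794 in fertile buds. The highest sterile array lay well below the lowest fertile array, and mean signal was 11.5-fold lower in sterile buds, a log2 change of -3.49 (SE 0.31, adjusted p = 1.8e-07). AT3G02480, another LEA family gene, had 55, 18.8, 34.8 and 38.5 in sterile buds, against 1674, 1572, 961.6 and 1354 in fertile buds. Its sterile signals all lay under the offset, so the transcript stood out from the dim end of the array only in fertile buds (-3.31, SE 0.40, adjusted p = 1.8e-05). AT5G53820, also of the LEA family, had 217.5, 79.9, 50 and 188.4 in sterile buds, against 2441, 2109, 1285 and 1105 in fertile buds, and the change was -2.90, SE 0.40, adjusted p = 7.2e-05. In whole buds, fewer cells of a type and less RNA per cell cannot be told apart, here and in every result that follows. Of 7 named probe sets of the LEA and abscisic acid list, 5 passed the filter on low signal. That filter asked for signal at the array median in both replicates of at least 1 group. It kept AT3G02480 and AT5G53820 only through fertile groups, where they were high, so the list's count and median depend in part on it. Of the 5 tested, 3 fell (60%, beside 1.93% lower among all probe sets tested) and none rose. Their median change was -2.90, beside 0.018 over all probe sets tested. The other 2 were the LEA family gene AT2G03850 (-1.03, adjusted p = 0.181) and the dehydrin gene COR47 (0.31, adjusted p = 0.672). All 3 calls were made whichever replicate was left out.

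Certain protease genes were also among the large decreases. AT4G16190, a papain-type cysteine protease gene, was bright on every array, with 3072, 3282, 4501 and 3472 in sterile buds, against 51610.4, 32584, 38155 and 39701 in fertile buds. The 4 sterile arrays lay close together and far under the lowest fertile array, and the means differed 11.3-fold (-3.45, SE 0.24, adjusted p = 6.2e-09). That was the smallest adjusted p of all named genes. AT1G06260, of the same family, had 306, 268.7, 792.7 and 912.1 in sterile buds, against 3631, 3489, 4552 and 4240.5 in fertile buds (-2.71, SE 0.34, adjusted p = 2.7e-05). Sterile replicate 2 was higher than sterile replicate 1 on both hybridisations, and neither came near the fertile arrays. AT1G29090, a further papain-type gene, was dimmer, with 213.2, 39.4, 180.5 and 117.7 in sterile buds, against 846, 855.1, 1001 and 1212 in fertile buds (-2.17, SE 0.42, adjusted p = 0.0041). Its call was lost without sterile replicate 1 (0.0623) or fertile replicate 2 (0.0515), where parentheses give the adjusted p. It was also lost on first hybridisations alone (0.149) and under the ratio covariate (0.0974). The cathepsin B-like gene AT4G01610 changed least, by -0.77 (SE 0.20, adjusted p = 0.037), its arrays overlapped, and its call was lost without sterile replicate 2 (0.385), fertile replicate 1 (0.194) or fertile replicate 2 (0.117). Under the ratio covariate its change was -0.50 (0.564). Of 13 tested papain-type genes, 4 fell (30.8%, beside 1.93% lower among all probe sets tested) and none rose, with a median change of -0.43. The filter on low signal kept AT1G29090 only through fertile groups, where it was high, so the share depends in part on that filter. The other 9 had changes from -0.65 to 0.21. AT4G04460, which encodes an aspartyl protease, had 383.7, 174.8, 305.1 and 252.3 in sterile buds, against 2589.8, 3375, 2768 and 1762 in fertile buds (-2.80, SE 0.38, adjusted p = 7.2e-05), with no overlap between the groups. The vacuolar processing enzyme genes, proteases of programmed cell death, gave no call. Their 3 tested members ALPHA-VPE, BETA-VPE and GAMMA-VPE had changes of 0.23, 0.32 and 0.24, with adjusted p of 0.799, 0.70 and 0.827. Of 7 tested genes of the cell death list, AT4G16190 and AT4G04460 fell (28.6%, beside 1.93% lower among all probe sets tested). None rose, and the median change was 0.06.

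Of 23 named probe sets of the pectin enzyme list, 12 were tested. Of these, 5 fell (41.7%, beside 1.93% lower among all probe sets tested) and 7 did not pass. The filter kept AT3G07840, AT5G48140 and AT1G11920 only through fertile groups, where they were high, so the share depends in part on it. AT3G07840 encodes a polygalacturonase-like enzyme, of a family that cuts the pectin backbone, and is among the genes listed for maturing pollen. Its signals were 62.7, 151.1, 89.5 and 184.5 in sterile buds, against 2790.0, 3527, 1632 and 1511 in fertile buds. Fertile replicate 1 was brighter than fertile replicate 2, and both lay far above every sterile array (-3.35, SE 0.44, adjusted p = 5.2e-05). AT5G48140, of the same family, had 44.1, 123.2, 243.1 and 131 in sterile buds, against 1380.0, 1324, 2194 and 1708 in fertile buds (-2.87, SE 0.47, adjusted p = 0.00068). AT1G11920 encodes a pectate lyase family protein, and its signals were 74.5, 162.6, 35.4 and 77.2 in sterile buds, against 1054, 1000.3, 1118 and 907.5 in fertile buds. The fertile arrays lay close together for this gene (-2.54, SE 0.47, adjusted p = 0.0029). The call was lost on second hybridisations alone (adjusted p = 0.0564) and under the ratio covariate (0.0974). AT5G62360, counted in this list, is of a family that holds inhibitors of invertase and pectin methylesterase. It was called lower in sterile small J10 buds too (-2.16, SE 0.41, adjusted p = 0.029), and its change in middle buds did not pass (-1.07, adjusted p = 0.353). In large buds AT5G62360 changed by -1.73 (SE 0.41, adjusted p = 0.019). It lost its call without sterile replicate 2 (0.28), fertile replicate 1 (0.173) or fertile replicate 2 (0.0696), and under the ratio covariate (0.341). The median change of the 12 was -0.50, and the highest was 0.49. The fifth, AT5G51500, falls outside the rule for named genes and is named after its value was seen (-1.23, adjusted p = 0.00864). Of the 5, 3 were called in every fit that left out a replicate, and 2 under the ratio covariate.

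Pollen genes beyond these gave few calls, and several of their probe sets were dim. Of 57 listed genes of maturing pollen, 20 were named in the annotation and 10 passed the filter on low signal. Among those 10, AT3G07840 and TET11 fell (20%, beside 1.93% lower among all probe sets tested). None rose, and the median change was -0.50. The filter kept AT3G07840 only through fertile groups, where it was high, so the share depends in part on that filter. TET11 had 442.8, 361.7, 303.6 and 629.2 in sterile buds, against 1268, 1267, 1281 and 1740.0 in fertile buds, so the highest sterile array was below the lowest fertile one (-1.48, SE 0.29, adjusted p = 0.0043). The call was lost without sterile replicate 1 (0.0616) or fertile replicate 2 (0.0555). It was also lost on first (0.0779) or second (0.125) hybridisations alone and under the ratio covariate (0.16). ACT12, the actin gene of mature pollen, had 64.4, 145.6, 157 and 612.3 in sterile buds, against 878.5, 690.5, 275 and 517.5 in fertile buds. The second hybridisation of sterile replicate 2 lay within the fertile range, and the change of -1.11 (SE 0.47) did not pass (adjusted p = 0.264). AT1G29140 had -1.17 (adjusted p = 0.0823). The tetraspanin gene TET12 and the pectin methylesterase family gene AT3G06830 had changes of 0.54 and 0.49, and neither passed (adjusted p of 0.702 and 0.678). The tubulin gene TUA1 and AT5G45880 had -0.36 and -0.45 (adjusted p of 0.716 and 0.678), and the other 2 tested members did not pass. AT1G20120, a GDSL lipase family gene among those listed for the pollen coat, fell. Its signals were 478.7, 48.2, 351 and 235.3 in sterile buds, against 951.1, 1472, 1657 and 955.9 in fertile buds (-1.93, SE 0.30, adjusted p = 0.00045). Of 3 tested pollen coat genes it was the only call (33.3%, beside 1.93% lower among all probe sets tested), and it was lost on first hybridisations alone (adjusted p = 0.241). The fructokinase family gene AT4G10260 fell by 1.81 on the log2 scale (SE 0.43, adjusted p = 0.021), a call lost without sterile replicate 2 (0.237), fertile replicate 1 (0.234) or fertile replicate 2 (0.0504), and under the ratio covariate (0.18). AT4G10260 was the 1 call among 5 tested genes of sugar import (20%, beside 1.93% lower among all probe sets tested). The filter kept it only through fertile groups, where it was high. The SWEET sugar exporter gene SWEET3 had -1.11 (adjusted p = 0.0615).

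Genes listed for tapetum enzymes and the pollen wall moved in both directions. Of 10 tested, 2 fell, 2 rose and 6 did not pass (40% called, beside 2.43% of all probe sets tested), and the median change was 0.02. SHT encodes spermidine hydroxycinnamoyl transferase, which makes the phenolamides laid down on the pollen surface, and its signals were 1109, 843.7, 2866 and 2517 in sterile buds, against 10984, 8137, 9584 and 7988 in fertile buds. The lowest fertile array lay well above the highest sterile array, and mean signal was 5-fold lower in sterile buds (-2.40, SE 0.36, adjusted p = 0.00022). AT4G00040, a member of the family of chalcone and stilbene synthases, had 447, 666, 945.4 and 866.4 in sterile buds, against 4551, 4964, 6141 and 5399 in fertile buds, a 7.2-fold difference of the means (-2.71, SE 0.39, adjusted p = 0.00012). AT4G29250, an acyltransferase family gene, had -1.09 (adjusted p = 0.121) and AT1G33430, a galactosyltransferase gene of wall formation, had -0.39 (adjusted p = 0.506). The other 2 calls of the list, AT3G23770 and A9, were higher in sterile buds and are described further on. ATA27, AT4G20420, AT5G62080 and AT5G13380 had 0.86, 0.49, 0.43 and -0.97 (adjusted p of 0.391, 0.304, 0.666 and 0.322).

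Single genes of other functions completed the largest decreases. The cupin family gene AT2G28680 had 277.8, 69.9, 120.5 and 222.5 in sterile buds, against 1653, 1384, 1779.8 and 1896 in fertile buds (-2.70, SE 0.31, adjusted p = 8.8e-06). Cupins include the storage globulins of seeds. AT3G61160, a shaggy-like protein kinase gene, had 642.8, 531.4, 433.3 and 817.6 in sterile buds, against 3884, 3022, 4361 and 4218 in fertile buds (-2.49, SE 0.23, adjusted p = 2.3e-07), and the groups were separated by a wide margin. AT5G09500, a gene for a cytosolic ribosomal protein of the small subunit, had 539.6, 703.3, 886.6 and 146.4 in sterile buds, against 4634, 2714, 4329 and 3796 in fertile buds (-2.68, SE 0.24, adjusted p = 1.8e-07). AT1G24735, of the caffeoyl-CoA O-methyltransferase-like family of phenylpropanoid metabolism, had 393.6, 210.1, 1019 and 134.2 in sterile buds, against 2921, 2643, 1799 and 1952 in fertile buds (-2.37, SE 0.30, adjusted p = 3.2e-05). Its sterile replicate 2 differed widely between hybridisations. The largest decrease of all belonged to probe set 261341_s_at, unnamed here, with 1546, 662.3, 82.2 and 135.1 in sterile buds, against 6665, 7707, 10851 and 8011 in fertile buds (-4.05, SE 0.52, adjusted p = 3.2e-05). Each of the 15 named genes with the largest decrease was called whichever replicate was left out, and 14 of them, all but AT1G11920, under every one of 18 alternative settings.

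**Figure D2:**
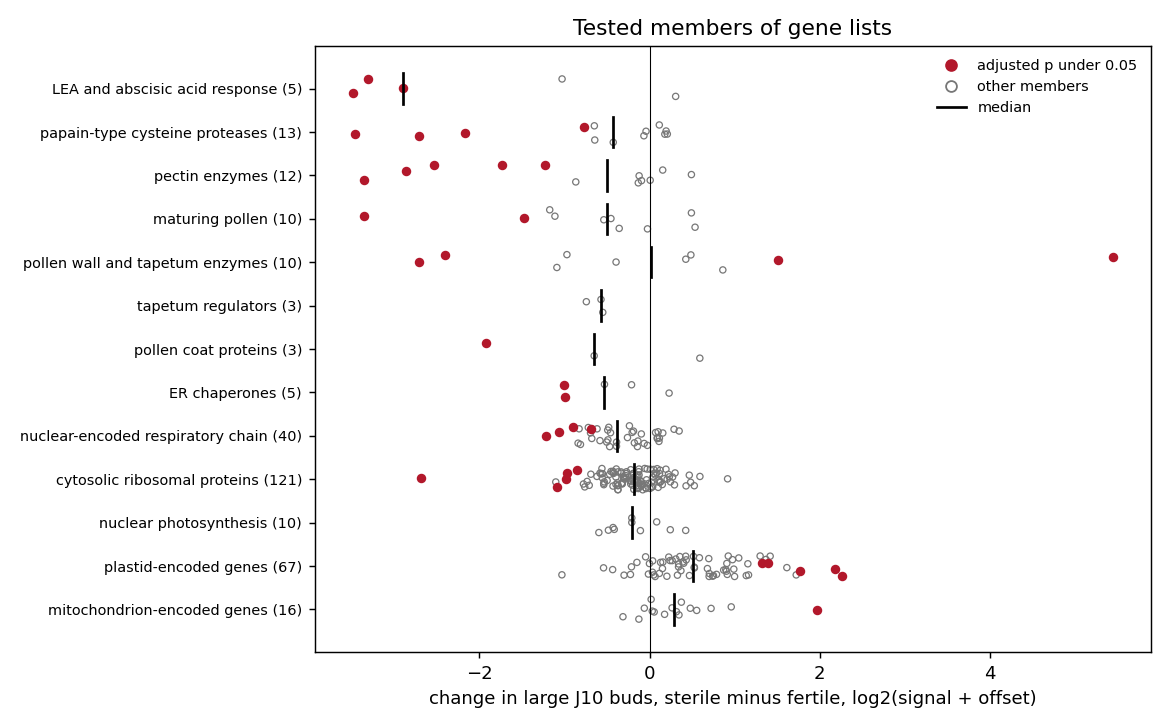
Change between sterile and fertile large J10 buds (x axis, log2 scale) of every tested member of 13 gene lists, with the number tested in parentheses. Filled points passed an adjusted p under 0.05, open points did not, and the black line marks the list's median, which is lowest for the LEA and abscisic acid list (-2.90) and highest for plastid-encoded genes (0.52).

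Smaller decreases were called in some genes of respiration, protein folding and translation. Among 40 tested nuclear genes of the respiratory chain, 31 had a negative change, 4 were called lower (10%, beside 1.93% of all probe sets tested) and none higher, and the median change was -0.39. Over all probe sets tested, 48.2% had a negative change. AT5G11770, for a subunit of complex I, had 1445, 1983, 2060.2 and 2081 in sterile buds, against 6159, 3750.1, 4534 and 3895 in fertile buds (-1.21, SE 0.28, adjusted p = 0.015). AT4G20150, likewise of complex I, had 4851, 4489, 4708 and 4489.6 in sterile buds, against 7729.8, 7389, 10026 and 10079.8 in fertile buds (-0.90, SE 0.19, adjusted p = 0.0086). AT4G32470 and AT3G10860, for subunits of complex III, changed by -1.06 and -0.69 (SE 0.21 and 0.18, adjusted p = 0.0052 and 0.036), and their arrays overlapped. All 4 calls were lost in some fits that left out a replicate. The changes in those fits were -1.08, -1.12 and -1.31 for AT5G11770 and -0.91, -0.89 and -0.69 for AT4G20150. They were -0.75 and -0.84 for AT4G32470 and -0.53, -0.76 and -0.62 for AT3G10860. AT5G11770 was lost without sterile replicate 1 (0.17), fertile replicate 1 (0.155) or fertile replicate 2 (0.0504). AT4G20150 was lost without sterile replicate 1 (0.0801), sterile replicate 2 (0.0605) or fertile replicate 2 (0.122). AT4G32470 was lost without sterile replicate 2 (0.138) or fertile replicate 1 (0.144). AT3G10860 was lost without sterile replicate 1 (0.314), fertile replicate 1 (0.119) or fertile replicate 2 (0.166). Under the ratio covariate none of the 4 was called, with changes of -1.04 (AT5G11770), -1.03 (AT4G20150), -0.86 (AT4G32470) and -0.87 (AT3G10860).

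In the endoplasmic reticulum, CRT1b, a calreticulin gene, had 7409, 7278, 8663 and 7221 in sterile buds, against 13942, 16566, 17397 and 13722 in fertile buds (-0.997, SE 0.22, adjusted p = 0.013). ATERDJ3B, which encodes a J-domain partner of the chaperone BiP, had 4468, 6779, 6309 and 4101 in sterile buds, against 9340.3, 7989, 14110.3 and 12529.6 in fertile buds (-1.003, SE 0.23, adjusted p = 0.017). Mean signals were 2.02-fold (CRT1b) and 2.03-fold (ATERDJ3B) lower in sterile buds, and 3 further tested chaperone genes of the list did not pass. Thus 2 of 5 were called (40%, beside 1.93% lower among all probe sets tested). CRT1b was lost without sterile replicate 1 (0.131), sterile replicate 2 (0.0545), fertile replicate 1 (0.0912) or fertile replicate 2 (0.069). ATERDJ3B was lost without sterile replicate 1 (0.0989), sterile replicate 2 (0.113) or fertile replicate 2 (0.206). Under the ratio covariate neither was called, with changes of -0.65 for CRT1b (0.419) and -0.87 for ATERDJ3B (0.294). Of 121 tested cytosolic ribosomal protein genes, 5 fell (4.13%, beside 1.93% lower among all probe sets tested), none rose, and 87 had a negative change (median -0.18). Beside AT5G09500 the largest were AT3G52580, AT3G56340 and AT4G17390, with changes of -1.09, -0.98 and -0.98 (SE 0.28, 0.26 and 0.21, adjusted p = 0.037, 0.043 and 0.0086). The fifth call, AT3G04920, had -0.85 (adjusted p = 0.0173) and is named after its value was seen. Of the 5, AT5G09500 alone was called in every fit that left out a replicate. AT3G52580 was lost without sterile replicate 1 (0.129), sterile replicate 2 (0.202), fertile replicate 1 (0.19) or fertile replicate 2 (0.125). AT3G56340 was lost without sterile replicate 1 (0.253), sterile replicate 2 (0.104) or fertile replicate 2 (0.315). AT4G17390 was lost without sterile replicate 1 (0.131), fertile replicate 1 (0.0599) or fertile replicate 2 (0.0688). Under the ratio covariate 1 of the 5 was called, and AT3G52580 (0.308), AT3G56340 (0.0685) and AT4G17390 (0.218) were lost. Changes under it were -1.05, -1.33 and -0.86 for AT3G52580, AT3G56340 and AT4G17390. SCPL49, a serine carboxypeptidase-like gene, had 2447, 2368, 3929 and 3461 in sterile buds, against 8643, 9346, 6512 and 7948 in fertile buds (-1.40, SE 0.24, adjusted p = 0.0012), 1 call among 21 tested genes of its family (4.76%, beside 1.93% lower among all probe sets tested). It was lost without sterile replicate 1 (0.0668) and under the ratio covariate (0.169).

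**Figure D3:**
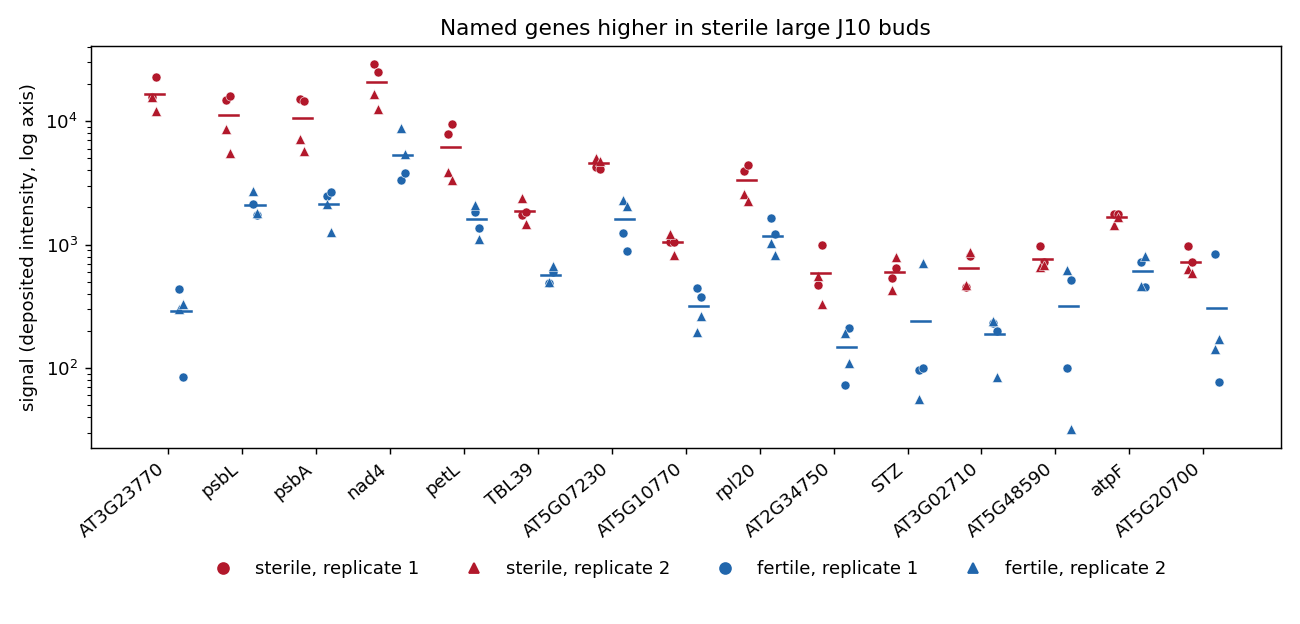
Signal on each array (deposited intensity, log axis) of 15 genes, those with the largest called increases, with sterile arrays left of fertile arrays and a line at the mean of 4 arrays. The gap between groups is widest for AT3G23770, and fertile arrays of STZ and AT5G20700 reach into the sterile range.

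The largest change in either direction was an increase. AT3G23770 encodes a protein of the beta-1,3-glucanase family, enzymes that break down callose, the wall polymer that surrounds tetrads. Its signals were 15729, 22741, 15605 and 12086 in sterile buds, against 436.3, 83.9, 302.1 and 327.6 in fertile buds. The fertile arrays lay below the array median or slightly above it, no sterile array came near them, and the means differed 57.5-fold (5.44, SE 0.78, adjusted p = 0.00013). The call was made in all 18 alternative settings. A9 (AT5G07230), a tapetum-specific gene used as a marker of that layer, had 4258, 4108, 5081 and 4776 in sterile buds, against 1232, 894.9, 2291 and 2050.0 in fertile buds. Mean signal was 2.82-fold higher in sterile buds (1.51, SE 0.26, adjusted p = 0.0012), and the call was lost only without fertile replicate 1 (0.0751). TBL39, of the trichome birefringence-like family of cell wall acetyltransferases, had 1739.7, 1845, 2382 and 1463 in sterile buds, against 490.0, 601.2, 499.5 and 676.8 in fertile buds (1.52, SE 0.30, adjusted p = 0.0043). It was lost without fertile replicate 1 (0.0587), on second hybridisations alone (0.249) and under the ratio covariate (0.186). The unnamed probe set 245622_at, the largest increase without a gene name, had 1971, 1934, 2199 and 2165 in sterile buds, against 23.1, 43.6, 62.4 and 171.7 in fertile buds (3.60, SE 0.67, adjusted p = 0.0029), with no overlap. It was lost without fertile replicate 1 (0.0612).

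None of the 3 tested regulators of the tapetum was called by limma, and 1 had an unadjusted p under 0.05. AMS, a bHLH factor of tapetum development, had 1119.6, 884.8, 1162 and 1231 in sterile buds, against 1403, 1936, 1628 and 1672 in fertile buds, and its change of -0.55 (SE 0.27) did not pass (adjusted p = 0.363) although the arrays did not overlap. EMS1, a receptor kinase gene that specifies tapetal cells, and AT2G31210, a bHLH gene, had -0.74 (adjusted p = 0.218) and -0.57 (adjusted p = 0.390). AMS and A9, both tapetum markers, thus lay on opposite sides. A sum of signals follows the brighter probe set and gives no measure of the amount of a tissue. The summed signal of A9 and AMS was 4992 to 6243 in sterile buds and 2635 to 3919 in fertile buds. The sum of the pollen markers ACT12 and TET11 was 460.6 to 1242 in sterile buds and 1556 to 2258 in fertile buds.

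Transcripts of the organelle genomes made up several of the other increases. Of 67 tested plastid-encoded probe sets, 5 rose (7.46%, beside 0.499% higher among all probe sets tested) and none fell. A negative change was seen in 10 (14.9%, beside 48.2% of all probe sets tested), and the median was 0.52. The list's median change was 0.64 in large J03 buds and 0.32 in middle J10 buds, with 1 call, higher, in each. psbL, for a small subunit of photosystem II, had 14795, 15881, 8676 and 5541 in sterile buds, against 2145, 1728, 2706 and 1802 in fertile buds. Sterile replicate 1 was brighter than sterile replicate 2, and both lay above the fertile arrays (2.26, SE 0.29, adjusted p = 3.2e-05). psbA, for the D1 protein of photosystem II, had 15018, 14692, 7133 and 5693 in sterile buds, against 2501, 2677, 2127 and 1262 in fertile buds (2.18, SE 0.46, adjusted p = 0.0079), with the same difference between sterile replicates. petL, for a subunit of the cytochrome b6f complex, had 7861, 9466, 3869 and 3335 in sterile buds, against 1833, 1375, 2112 and 1112 in fertile buds. atpF, for a subunit of the plastid ATP synthase, had 1780.1, 1755, 1442 and 1682 in sterile buds, against 724.8, 451, 463.2 and 812.1 in fertile buds, and rpl20, for a plastid ribosomal protein, had 3944, 4454, 2594 and 2265 in sterile buds, against 1653, 1225, 1034 and 818.2 in fertile buds. Their changes were 1.76, 1.32 and 1.39 (SE 0.35, 0.25 and 0.35, adjusted p = 0.0050, 0.0029 and 0.033). All of these plastid calls but psbL were lost in some fit that left out a replicate. The changes in those fits were 1.145 and 1.786 for petL and 1.575 and 1.868 for psbA. They were 1.01, 1.677 and 1.105 for rpl20 and 1.239 for atpF. petL was lost without sterile replicate 1 (0.187) or fertile replicate 1 (0.0511). psbA was lost without sterile replicate 1 (0.2) or fertile replicate 2 (0.0934). rpl20 was lost without sterile replicate 1 (0.338), fertile replicate 1 (0.0641) or fertile replicate 2 (0.214). atpF was lost without sterile replicate 1 (0.0578). psbL was called in all 18 settings. The mitochondrial gene nad4, for a subunit of complex I, had 29003, 25204, 16684 and 12602 in sterile buds, against 3358, 3799.7, 8764 and 5454 in fertile buds (1.97, SE 0.38, adjusted p = 0.0043), the 1 call among 16 tested mitochondrial probe sets (6.25%, beside 0.499% higher among all probe sets tested). It was lost without sterile replicate 1 (0.131) or fertile replicate 1 (0.142). Under the ratio covariate, psbL was the only one of these 6 called (adjusted p = 0.00799). Changes under it were 1.95 for psbL, 2.10 for psbA, 1.89 for petL, 1.05 for atpF, 1.43 for rpl20 and 1.18 for nad4. Among 10 tested photosynthesis genes of the nucleus limma called none in either direction, and 4 had an unadjusted p under 0.05, all with a negative change, RCA among them (-0.48, adjusted p = 0.327).

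Further increases were of 1 gene each, and most were lost under the ratio covariate. This was so for UGT80B1 (0.202), AT1G12010 (0.214), STZ (0.564), AT2G34750 (0.336), AT5G48590 (0.215) and AT5G20700 (0.267), and not for AT5G10770 (0.00211) or AT3G02710 (0.0322). AT5G10770, an aspartyl protease family gene, had 1059, 1059.9, 1228 and 828 in sterile buds, against 444, 376.7, 197.5 and 262.5 in fertile buds (1.44, SE 0.26, adjusted p = 0.0025). Its call was lost without fertile replicate 2, where the change was 1.137. It was also lost on first (adjusted p = 0.0528) or second (0.127) hybridisations alone. AT3G02710 had 450.7, 812.1, 466.7 and 863.6 in sterile buds, against 231.9, 199.6, 239.3 and 83.9 in fertile buds (1.33, SE 0.26, adjusted p = 0.0041). Its call was lost without fertile replicate 2, where the change was 1.168. It was also lost on first hybridisations alone (0.71, adjusted p = 0.518) and in a fit of the compared groups only (adjusted p = 0.117). UGT80B1, a sterol glucosyltransferase gene, had 1532, 1098, 1129 and 1065 in sterile buds, against 680.2, 398.1, 776.3 and 385.9 in fertile buds (1.01, SE 0.22, adjusted p = 0.0091) and was lost without sterile replicate 1 (0.133) or fertile replicate 1 (0.0964). AT1G12010 encodes an ACC oxidase, which makes ethylene, and had 1637, 1871, 2285 and 1784 in sterile buds, against 1026, 990.6, 989.8 and 1376 in fertile buds. Its change of 0.73 (SE 0.20) lay just inside the threshold (adjusted p = 0.04998) and was lost in each of the 4 fits that left out a replicate (adjusted p from 0.0883 to 0.33). The zinc-finger gene STZ had 541.5, 648.3, 431.4 and 793.5 in sterile buds, against 96.1, 100.4, 56.5 and 706.4 in fertile buds (1.33, SE 0.36, adjusted p = 0.047). The second hybridisation of fertile replicate 2 of STZ lay inside the sterile range, and the call was lost without sterile replicate 1 (0.2), sterile replicate 2 (0.163) or fertile replicate 1 (0.45). AT2G34750 and AT5G48590 changed by 1.39 and 1.32 (SE 0.35 and 0.30, adjusted p = 0.031 and 0.015). AT2G34750 was lost without sterile replicate 1 (0.277), fertile replicate 1 (0.196) or fertile replicate 2 (0.0973), and AT5G48590 without sterile replicate 1 (0.167), fertile replicate 1 (0.0796) or fertile replicate 2 (0.0939). AT5G20700 changed by 1.29 (SE 0.35, adjusted p = 0.048), its arrays overlapped, and it was lost without sterile replicate 1 (0.296), sterile replicate 2 (0.0834), fertile replicate 1 (0.0685) or fertile replicate 2 (0.281).

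The tetraspanins had 1 call among 12 tested (TET11, lower), the trichome birefringence-like family 1 among 19 (TBL39, higher) and the UDP-glycosyltransferases 1 among 17 (UGT80B1, higher). Over all probe sets tested 0.499% were called higher and 1.93% lower. Several gene families gave no call by limma among their tested members. They were 13 expansins, 6 tubulins, 6 tau glutathione transferases, 5 xyloglucan endotransglucosylases and 4 RALF-like peptides. Of these members only 3 expansins and 3 glutathione transferases had an unadjusted p under 0.05. Their median changes ran from -0.21 for the tubulins to 0.22 for the xyloglucan endotransglucosylases. Jasmonate and dehiscence genes (3 tested), ovule and pistil genes (3), meiosis genes (2) and heat shock genes (2) gave none either, with 1 unadjusted p under 0.05 among them, that of INO. INO had 0.76 (adjusted p = 0.317), and JMT, which methylates jasmonate, had -0.41 (adjusted p = 0.690).

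**Figure D4:**
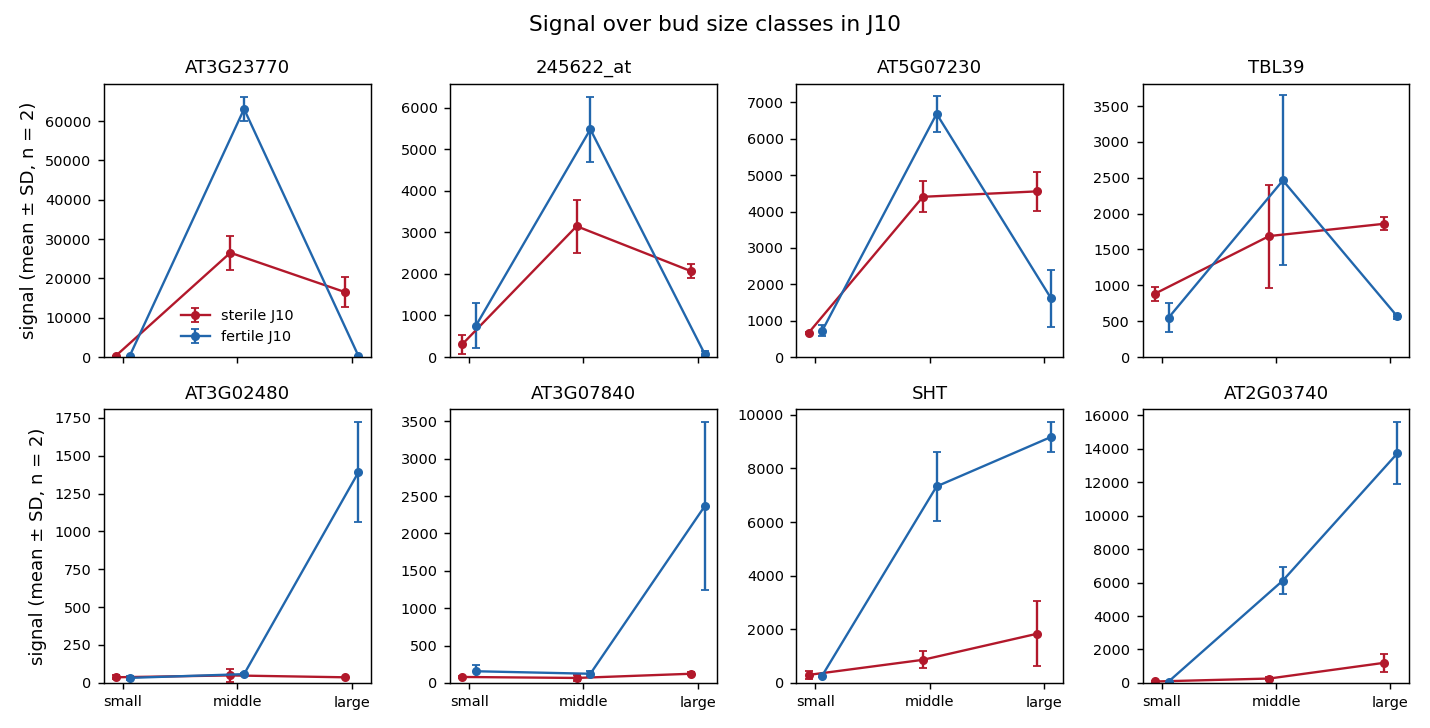
Mean signal ± SD of 2 replicates (linear axis) in small, middle and large J10 buds, sterile in red and fertile in blue, for 4 probe sets higher (upper row) and 4 lower (lower row) in sterile large buds. In the upper row fertile buds are highest at the middle stage and low in large buds, and sterile large buds lie above fertile large buds.

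The size classes of J10 showed where the differences of large buds stood in the course of bud growth. In J10 small buds, under 1 mm long, 15 probe sets were called (0.107%), 2 higher (0.0143%) and 13 lower (0.0927%) in sterile plants. In J10 middle buds 80 probe sets were called (0.571%), 11 higher (0.0785%) and 69 lower (0.492%) in sterile plants. The lists of lower calls shared 23 probe sets, 8.49% of those of large buds and 33.3% of those of middle buds. Over the 271 lower calls of large buds, the median change in middle buds was -0.35. In a test of the difference, large-bud effect minus middle-bud effect, 35 probe sets were called (0.25%), 13 positive (0.0927%) and 22 negative (0.157%).

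Several genes higher in large sterile buds were at their highest in fertile buds at the middle stage. AT3G23770 averaged 341.1 ± 7.14, 26533 ± 4357 and 16540.5 ± 3811 in small, middle and large sterile buds (SD, n = 2). Fertile buds had 289.7 ± 1.8, 63095 ± 3155 and 287.5 ± 38.7 in the same order. The signal was thus lower in sterile than in fertile middle buds, by a change that did not pass (-1.30, SE 0.78, adjusted p = 0.649), and higher in sterile large buds. The difference between the 2 changes was 6.74, SE 1.11, adjusted p = 0.0046, and it passed in all 8 fits that left out a replicate. A9 had 4406 ± 426.9 and 4556 ± 527.1 in sterile middle and large buds, against 6688 ± 499.7 and 1617 ± 782.8 in fertile ones. Its change in middle buds was -0.62, SE 0.26, adjusted p = 0.442, and the difference of changes was 2.13, SE 0.37, adjusted p = 0.0065, lost without sterile large replicate 2 (0.0512) or fertile large replicate 1 (0.0763). AT1G12570, of the glucose-methanol-choline oxidoreductase family, had 1819 ± 465.7 and 2357 ± 130.4 in sterile buds, against 6986 ± 389.5 and 1082 ± 66.8 in fertile buds. It was called lower in sterile middle buds (-1.88, SE 0.25, adjusted p = 0.00027) and higher in sterile large buds (1.04, SE 0.25, adjusted p = 0.025), the second call lost whichever replicate was left out (adjusted p from 0.0765 to 0.185) and under the ratio covariate (0.0853). The difference of 2.91, SE 0.36, adjusted p = 0.00016 held in all 8 fits that left out a replicate.

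AT4G30470 had the same form, with 6249 ± 437.9 and 5549 ± 2732 in sterile middle and large buds, against 23459 ± 5148 and 2429 ± 1421 in fertile ones. Its change in large buds did not pass (1.24, SE 0.35, adjusted p = 0.060), while the difference between size classes did, in all 8 such fits (3.12, SE 0.49, adjusted p = 0.0042). TBL39 had 1687 ± 718.6 and 1857 ± 91.7 in sterile buds, against 2463 ± 1185 and 566.9 ± 30.1 in fertile buds. Its difference (2.03, SE 0.42, adjusted p = 0.034) was lost without sterile large replicate 1 (0.111), sterile large replicate 2 (0.103), fertile large replicate 1 (0.166), fertile large replicate 2 (0.0633), sterile middle replicate 1 (0.195) or fertile middle replicate 2 (0.302), and under the ratio covariate (0.0548). The unnamed 245622_at had 3149.9 ± 636.1 and 2067 ± 162.5, against 5482 ± 787.3 and 75.2 ± 59.2 in fertile buds. Its difference (4.38, SE 0.95, adjusted p = 0.046) passed in none of the 8 fits that left out a replicate (adjusted p from 0.0613 to 0.245).

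Genes lower in large sterile buds differed in whether fertile middle buds already held the transcript. AT3G02480 and AT3G07840 lay near the dim end of the array in fertile middle buds and were bright in fertile large buds alone. AT3G02480 had 49.2 ± 41.5 and 36.8 ± 0.177 in sterile middle and large buds, against 57.6 ± 5.69 and 1390.5 ± 328.9 in fertile ones (difference of changes -3.19, SE 0.57, adjusted p = 0.0085). AT3G07840 had 65.7 ± 36.7 and 122 ± 21.3, against 121.8 ± 43 and 2365 ± 1122 in fertile buds (-2.97, SE 0.63, adjusted p = 0.038). Both passed the test of the difference between size classes. AT5G53820, AT4G04460, AT5G09500 and AT3G61160 also passed the test of the difference. Their differences were -2.87, -2.89, -1.98 and -1.98 (SE 0.56, 0.54, 0.33 and 0.32, adjusted p = 0.020, 0.012, 0.0052 and 0.0042). AT3G61160 passed in all 8 fits that left out a replicate. AT3G02480 was lost without fertile large replicate 1 (0.0801) or sterile middle replicate 2 (0.0514), and AT5G09500 without sterile large replicate 2 (0.0512). AT3G07840 was lost without sterile large replicate 1 (0.14), sterile large replicate 2 (0.0909), fertile large replicate 1 (0.282), sterile middle replicate 1 (0.0847), sterile middle replicate 2 (0.112), fertile middle replicate 1 (0.108) or fertile middle replicate 2 (0.0831), and under the ratio covariate (0.0551). AT5G53820 was lost without sterile large replicate 1 (0.0674), sterile large replicate 2 (0.0842), fertile large replicate 1 (0.201), sterile middle replicate 1 (0.132) or fertile middle replicate 2 (0.169), and AT4G04460 without sterile large replicate 1 (0.0674), sterile large replicate 2 (0.0512), fertile large replicate 1 (0.146), sterile middle replicate 2 (0.0536) or fertile middle replicate 2 (0.144).

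For other genes fertile buds already held the transcript at the middle stage. SHT had 859.7 ± 314.8 and 1834 ± 1213 in sterile middle and large buds, against 7329.6 ± 1301 and 9173 ± 547.9 in fertile ones, and was called in middle buds too (-2.98, SE 0.36, adjusted p = 9.1e-05). AT2G03740 had 258.5 ± 90.2 and 1195 ± 557.6, against 6124 ± 794 and 13728 ± 1857 in fertile buds (middle-bud change -4.18, SE 0.31, adjusted p = 1.7e-08). AT4G00040 had a middle-bud change of -2.52, SE 0.39, adjusted p = 0.0011. SHT, AT2G03740 and AT4G00040 kept the middle-bud call whichever middle-bud replicate was left out. AT1G06260 and AT2G28680 were called in middle buds (-1.92 and -1.62, adjusted p = 0.0055 and 0.011). AT1G06260 was lost there without sterile replicate 2 (0.0865) or fertile replicate 2 (0.0748), and AT2G28680 without sterile replicate 1 (0.131) or fertile replicate 1 (0.182). Under the ratio covariate the middle-bud calls of AT2G28680 (0.0821) and AT4G16190 (0.0513) were lost. For none of these 5 genes did the difference between size classes pass (adjusted p from 0.56 to 0.973). Middle-bud calls were also made for 261341_s_at (-2.98, SE 0.52, adjusted p = 0.0047) and CRT1b (-1.14, SE 0.22, adjusted p = 0.012). psbL was called higher in sterile middle buds (1.24, SE 0.29, adjusted p = 0.044). All of them lost that call without some single replicate, and CRT1b (0.0997) and psbL (0.208) under the ratio covariate. Their differences between size classes did not pass. AT4G16190 was lower in sterile buds at both stages (-1.33, SE 0.24, adjusted p = 0.0075 in middle buds, lost without sterile replicate 2 (0.0816) or fertile replicate 2 (0.14)), and its decrease was larger in large buds (difference -2.13, SE 0.35, adjusted p = 0.0042, passed in all 8 fits).

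**Figure D5:**
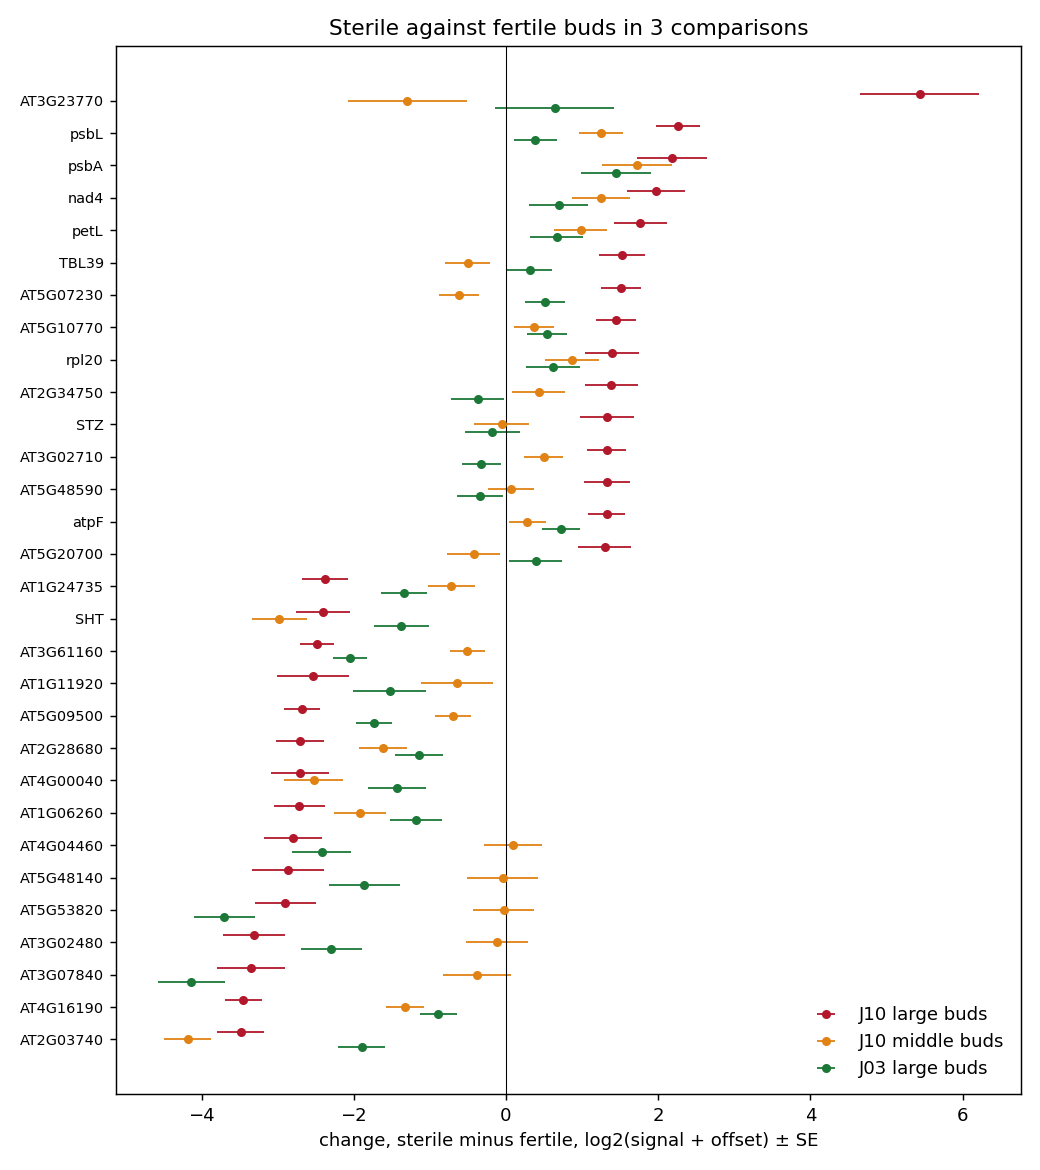
Change between sterile and fertile buds ± SE (x axis, log2 scale) of the 30 named genes with the largest changes, in large J10 buds (red), middle J10 buds (orange) and large J03 buds (green). AT3G23770 lies far to the right in large J10 buds alone, and the 15 genes with decreases all lie left of 0 in large buds of both lines.

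Large buds of J03 showed which of these differences were also found in a line that segregates at Ms. In J03 large buds 135 probe sets were called (0.963%), 29 higher (0.207%) and 106 lower (0.756%). The lists of lower calls in the 2 lines shared 62 probe sets, 22.9% of those of J10 and 58.5% of those of J03. The lists of higher calls shared 1 probe set, 1.43% of the 70 of J10 and 3.45% of the 29 of J03. Among the 15 named genes with the largest decreases in J10, all 15 had a negative change in J03 and 8 were called there. Among the 15 with the largest increases, 11 had a positive change in J03 and none was called by limma, while psbA and atpF had an unadjusted p under 0.05 there. Over the list of plastid-encoded genes the median change was 0.64 in J03, beside 0.52 in J10. The J03 groups had 3' to 5' ratios of 1.16 ± 0.244 in sterile and 1.01 ± 0.045 in fertile large buds (SD, n = 2).

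Several of these genes were lower in sterile buds of both lines. AT3G07840 changed by -4.13, SE 0.44, adjusted p = 5.2e-06 in J03, AT5G53820 by -3.70, SE 0.40, adjusted p = 5.2e-06 and AT4G04460 by -2.42, SE 0.38, adjusted p = 0.00093. AT3G61160 and AT5G09500 changed by -2.05 and -1.73 (SE 0.23 and 0.24, adjusted p = 6.7e-06 and 0.00012). These 5 calls were made whichever J03 replicate was left out. AT3G02480 had -2.29, SE 0.40, adjusted p = 0.0027 and was lost without sterile replicate 2 (0.0785). AT2G03740 had -1.89, SE 0.31, adjusted p = 0.0014 and was lost without sterile replicate 1 (0.0882) or fertile replicate 2 (0.0508). SHT had 4364 ± 2074 in sterile and 11273 ± 2099.8 in fertile J03 buds, and the change did not pass (-1.38, SE 0.36, adjusted p = 0.077). ACT12, which did not pass in J10, was lower in sterile J03 buds (-2.33, SE 0.47, adjusted p = 0.0094), a call lost without sterile replicate 1 (0.134), fertile replicate 1 (0.0793) or fertile replicate 2 (0.139).

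A difference between the lines themselves passed for few probe sets. The J10 change minus the J03 change was called in 4 (0.0285%), 1 positive (0.00713%) and 3 negative (0.0214%), of which 2 had a gene name, while 1068 had an unadjusted p under 0.05. AT4G16190 averaged 3582 ± 572.3 in sterile and 40513 ± 2241 in fertile J10 buds, and 18969 ± 47.7 in sterile and 36113 ± 5364 in fertile J03 buds. The sterile J03 buds lay between the sterile and the fertile J10 buds. The difference of changes was -2.56, SE 0.35, adjusted p = 0.0017, and it passed in all 8 fits that left out a replicate. AT4G02620, for a subunit of the vacuolar proton pump, had 2600.4, 2680.5, 2283 and 2052 in sterile buds, against 5067, 4536, 5015 and 4446 in fertile buds (-0.96, SE 0.21, adjusted p = 0.010), whereas J03 buds had 5322 ± 332.2 in sterile and 3304 ± 728.9 in fertile plants. The J10 change alone was lost without sterile replicate 2 (0.123), fertile replicate 1 (0.0915) or fertile replicate 2 (0.0569), and under the ratio covariate (0.275). The difference of changes (-1.64, SE 0.29, adjusted p = 0.036) was lost without J10 sterile replicate 1 (0.0687), J10 sterile replicate 2 (0.0984), J10 fertile replicate 1 (0.225), J10 fertile replicate 2 (0.0645), J03 sterile replicate 1 (0.0786), J03 sterile replicate 2 (0.065) or J03 fertile replicate 1 (0.281), and under the ratio covariate (0.27). For AT3G23770 the J03 buds varied widely, at 5401 ± 7224 in sterile and 1466 ± 1276 in fertile plants. Its difference between lines was large but did not pass (4.797, SE 1.11, adjusted p = 0.151), nor did that of A9 (1.00, SE 0.37, adjusted p = 0.498) or psbL (1.87, SE 0.41, adjusted p = 0.124). AT1G12010 was called higher in sterile buds of both lines, with J03 signals of 5482 ± 429 in sterile and 1299 ± 42.9 in fertile buds (1.98, SE 0.20, adjusted p = 2.4e-06). The difference between lines was not called for it (adjusted p = 0.15).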

How the data were processed

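Flower bud RNA of 48 arrays in 12 groups was measured on the Affymetrix ATH1 array. The values are linear signal intensities deposited by the authors. The submitters' processing notes name MAS5, with no version. The 2% trimmed mean of each array was 500.0. The array number limits the precision, and detection calls were not used here. Both hybridisations of a replicate were averaged after log2(signal + 112), the offset being the median over arrays of the 25th percentile. A probe set was tested if its mean signal reached the array median in both replicates of at least 1 group, which kept 14021 of 22746 (22810 less 64 controls). List members dim in every group were thus left out, and some were kept only through the groups where they were high. A list's share of calls is therefore not independent of the filter. Of those tested, 7844 had 1 gene in GEO's platform annotation, 281 several and 5896 none. The fit used limma 3.58.1 (lmFit, eBayes with trend) in R 4.3.3 over 24 columns and 12 residual degrees of freedom, with Benjamini-Hochberg adjustment over all probe sets tested and a threshold of 0.05. Plots came from matplotlib 3.10.9 (Python 3.11.15). The code was tested on simulated data. P-values measure the spread between biological replicates, pooled over groups.

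Named genes are the 15 one-gene calls with the largest change in each direction whose replicates do not overlap, up to 4 called members of each list, a few fixed genes (A9, AMS, ACT12, TET11), the 5 largest calls in each test of a difference, and the largest unnamed probe set in each direction. List members named beyond these are given to account for a list's count. The members, lists and alternatives were chosen with earlier results of these data known, and the families taken from gene symbols were written after the annotation was seen. Same-numbered replicates of the sterile and fertile groups correlated, in their deviations from the group means, at r = 0.094 in large, 0.237 in middle and 0.179 in small J10 buds and 0.08 in large J03 buds, in 2 pairs each, and the labels state no shared plant or day, so no block was used.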

Additional observations from a re-analysis of the deposited data

Results flagged for a closer look

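In 6 groups of 4 arrays, 1 array lay far from the other 3 by Dixon's test. Of 110 groups examined, a rate of 1 in 20 would give 5.5. That rate assumes 4 independent values, whereas each group held 2 replicates hybridised on 2 arrays each, so it cannot show whether 6 is a chance number. The outlying signals were 1740.0 for TET11, 1375.5 for AT1G12010 and 706.4 for STZ in the second hybridisation of fertile replicate 2. In the first hybridisation of sterile replicate 1 they were 1445 for AT5G11770 and 1532 for UGT80B1. In the first hybridisation of sterile replicate 2 it was 8663 for CRT1b.

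The change between sterile and fertile large buds differed between J10 and J03 for AT4G16190, the papain-type protease gene (J10 change minus J03 change -2.56), and for AT4G02620, of the vacuolar proton pump (-1.64), by an interaction contrast in limma. The first passed in all 8 fits that left out a replicate and the second in 1 of 8.

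The change in J10 differed between large and middle buds, by the same kind of contrast, for 13 named genes. The differences, large minus middle, were 6.74 for AT3G23770, 4.38 for 245622_at, 3.12 for AT4G30470, 2.91 for AT1G12570, 2.13 for AT5G07230 (A9) and 2.03 for TBL39. They were -3.19 for AT3G02480, -2.97 for AT3G07840, -2.89 for AT4G04460, -2.87 for AT5G53820, -2.13 for AT4G16190, and -1.98 for both AT5G09500 and AT3G61160. Of these, AT3G23770, AT1G12570, AT4G30470, AT4G16190 and AT3G61160 passed in all 8 fits that left out a replicate.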

How the results depend on the processing

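The count of 341 calls in large J10 buds was within 1.5 times of its value with other offsets, no filter or a stricter filter, quantile normalization, or no intensity trend (248 to 365). Quantile normalization gave 92 higher and 223 lower. It was 198 with the compared groups only, 197 with J10 groups only, 176 with first and 93 with second hybridisations only, 555 when each of the 48 arrays entered the fit with its replicate as random effect, and 79 under the ratio covariate (14 higher, 65 lower). Leaving out 1 replicate gave 122 to 246. An alternative chosen after seeing the data, without the second hybridisation of sterile replicate 2, gave 411 (109 higher, 302 lower). With the replicate number as a block within each line the count was 575, and for J10 middle buds 161, for the difference between lines 35 and for the difference between size classes 76. With single arrays these 3 were 153, 31 and 84. Under that covariate the count for J10 middle buds was 34. Leaving out 1 replicate gave 50 to 115 for J03 large buds (135 in all), 41 to 63 for J10 middle buds (80), 2 to 17 for the difference between lines (4) and 14 to 45 for the difference between size classes (35). The causes of these changes were not tested, and neither was the part of the smaller number of samples where replicates or groups were left out. Of the single-gene values under alternatives, 748 kept their direction and side of the threshold, 230 lost the call, 7 gained it and none changed direction. The median change of all probe sets tested reached at most 0.039 in any setting. With 2 replicates a group and no detection call used, changes of dim probe sets are least certain.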
